A study of Mus musculus with 6 samples.

Results

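The genes described here encode the acid hydrolases of the lysosome, its membrane proteins, the proton pump that acidifies it, and the transcription factors that act on these genes. They form a list of 44 gene symbols, and a gene was taken as measured where a row of the array table carried exactly 1 symbol and that symbol was on the list. This held for 42 of the 44 genes, out of 22180 genes measured in all. Glb1 (beta-galactosidase) and Atp6v0c (the proteolipid of the pump) had no such row and were not analysed here. The 42 genes fell into 6 classes, namely 11 proteases, 8 glycosidases, 7 other hydrolases and their cofactors, 6 membrane proteins, 7 proton pump genes and 3 transcription factors.

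RNA came from myeloid cells of mouse fetal liver, cultured with GM-CSF at 1 ng/ml, which drives growth of granulocytes and macrophages, and was hybridised to Affymetrix Mouse Gene 2.0 ST arrays with 1 array for each sample. The induced group, 3 samples named A, B and C, had been exposed for 72 hours to doxycycline at 1000 ng/ml, which the labels give as PU.1 expression. The uninduced group, also 3 samples named A, B and C, had the same culture without the drug. Doxycycline is a tetracycline often used to switch on an engineered gene. The sources used here do not give the construct, the clonality of the cells or the strain of the mice, and no sample had the drug without the induction, so the effects of the drug and of PU.1 cannot be told apart. The title of the series ties PU.1, the myeloid transcription factor encoded by Spi1, to exit from the cell cycle, and the comparison below asks whether the lysosomal genes differ between the same groups.

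Lysosomes degrade protein, glycan, lipid and nucleic acid that arrive by endocytosis, phagocytosis and autophagy. Their hydrolases need an acid lumen, which the vacuolar ATPase (V-ATPase) maintains by pumping protons, and the related factors TFEB, TFE3 and MITF bind short E-box sequences at many of the genes. Macrophages, which differentiate from myeloid progenitors, are rich in lysosomes.

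The data were log2 expression values, so a difference of 1 is a doubling of signal. Over all rows of the table, the correlation of a pair of arrays was 0.973 to 0.988 inside a group and 0.942 to 0.991 across groups, so the highest correlation was between arrays of different groups. Spi1 itself was at 9.13, 9.04 and 9.05 in induced A, B and C, against 8.80, 8.65 and 8.84 in uninduced A, B and C, a difference of 0.31 (SE 0.12, limma adjusted p = 0.152). Of the 10 granulocyte markers 6 were above the range of background on all 6 arrays. That range is set by 1390 olfactory and vomeronasal receptor genes, which such cells are not known to use. A value was taken as above it when it exceeded their 95th percentile on the same array. That percentile was 7.39, 7.99 and 7.86 on induced A, B and C, against 7.37, 7.05 and 7.34 on uninduced A, B and C. It was thus higher on every induced array than on any uninduced one. Nothing in the labels says that the samples were separate cultures, so each p-value speaks of the spread among these 6 samples alone, and that spread may be technical.

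The upstream sequence of these genes is shown first, because the E-box is what the TFE factors recognise and the purine-rich element GAGGAAGT is a form of the site that PU.1 binds. RefSeq (GRCm38.p6) gives promoter windows, each of 250 bases before and 50 bases after a transcription start, for 38 of the 44 genes, in 48 windows. The letters CACGTG, the core E-box, which reads the same on both strands, were in 12 of the 48 windows and in 7.15% of 32851 windows of all genes. The longer palindrome TCACGTGA, which contains CACGTG, was in 6 of the 48 windows (12.5%) and in 0.974% of all. GAGGAAGT, searched on both strands, was in 5 of the 48 (10.4%) and in 3.20% of all. A match is a description of letters, not of a bound site. The stretches printed run from 100 bases before the start to 30 bases after it, 5′ to 3′ on the gene's strand, with every match of these letters in capitals. Lamp1, Ctsa and Mcoln1 show how the E-box recurs close to the start, Pld4 and Ctss carry the PU.1-type letters there, and Smpd1 carries neither. For Ctsa 1 of its 2 listed starts is shown, and the window at its other start held no match.

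Pld4, chr12:112760555-112760684, plus strand: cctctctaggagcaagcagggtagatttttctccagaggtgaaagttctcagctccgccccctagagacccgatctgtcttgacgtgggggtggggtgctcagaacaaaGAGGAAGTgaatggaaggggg
Smpd1, chr7:105554260-105554389, plus strand: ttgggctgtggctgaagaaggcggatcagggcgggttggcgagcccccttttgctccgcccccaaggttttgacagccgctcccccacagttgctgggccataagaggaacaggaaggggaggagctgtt
Ctss, chr3:95526686-95526815, plus strand: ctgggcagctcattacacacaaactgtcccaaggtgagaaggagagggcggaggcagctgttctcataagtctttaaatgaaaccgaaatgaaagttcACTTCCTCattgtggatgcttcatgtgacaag
Lamp1, chr8:13159061-13159190, plus strand: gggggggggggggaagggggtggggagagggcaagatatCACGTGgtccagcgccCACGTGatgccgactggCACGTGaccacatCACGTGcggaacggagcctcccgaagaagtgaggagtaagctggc
Ctsa, chr2:164833673-164833802, plus strand, at 1 of its 2 listed starts: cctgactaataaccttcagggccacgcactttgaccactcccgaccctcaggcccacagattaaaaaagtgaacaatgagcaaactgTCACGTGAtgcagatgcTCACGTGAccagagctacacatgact
Mcoln1, chr8:3500419-3500548, plus strand: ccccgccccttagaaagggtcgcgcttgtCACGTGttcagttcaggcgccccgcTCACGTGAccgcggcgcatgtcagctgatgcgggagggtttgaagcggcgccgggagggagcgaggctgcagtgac

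In Pld4 the match began at base 10 from the start that the window uses, which lies inside RefSeq's interval for the gene, and in Ctss, where it lies on the opposite strand, it began 2 bases before the start. Lamp1 held 4 copies of CACGTG, the first of them beginning 61 bases and the last 15 bases before the start.

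Between the groups, 1 of the 42 genes rose in induced cells and 1 fell. Pld4, an endolysosomal exonuclease of the phospholipase D family, rose, and Smpd1, acid sphingomyelinase, fell. No protease, glycosidase, membrane protein, proton pump gene or TFE factor passed the test, which was limma with Benjamini-Hochberg adjustment over all genes at 0.05. Over all 22180 genes the same test called 0.374% higher and 1.05% lower. A count of 1 gene in each direction is too small to be set against those shares. At an unadjusted p under 0.05 there were 2 genes higher and 5 lower among the 42, while 28.3% of all genes passed that level in either direction.

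The 95% intervals of the differences, which are not adjusted for the number of genes, lay within a log2 of 1 on either side of 0 for 38 of the 42 genes, and within 1.5-fold for 26. After each of the 3 rescalings these counts were 37 or 38 and 22 to 30. For all genes the share within a log2 of 1 was 92.4%. Within 1.5-fold were 11292 of the 22180 genes as deposited, and 12064 to 17290 after the 3 rescalings. The 4 genes with a wider interval were Pld4, Smpd1, Gpnmb and Atp6v0d2. The 3 induced values lay wholly above the 3 uninduced ones for 4 genes (Ctss, Pld4, Atp6v0d2 and Ppt1, the last by less than the second decimal) and wholly below for 5 (Gla, Gaa, Naglu, Smpd1 and Atp6v1a), while over all genes the shares were 16.0% and 15.4%. Of the 42 genes 34 were above the range of background on all 6 arrays. Ctsh, Ctsk, Ctss, Lgmn, Atp6v0d2 and Tfeb were within it on all 6.

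**Figure D1:**
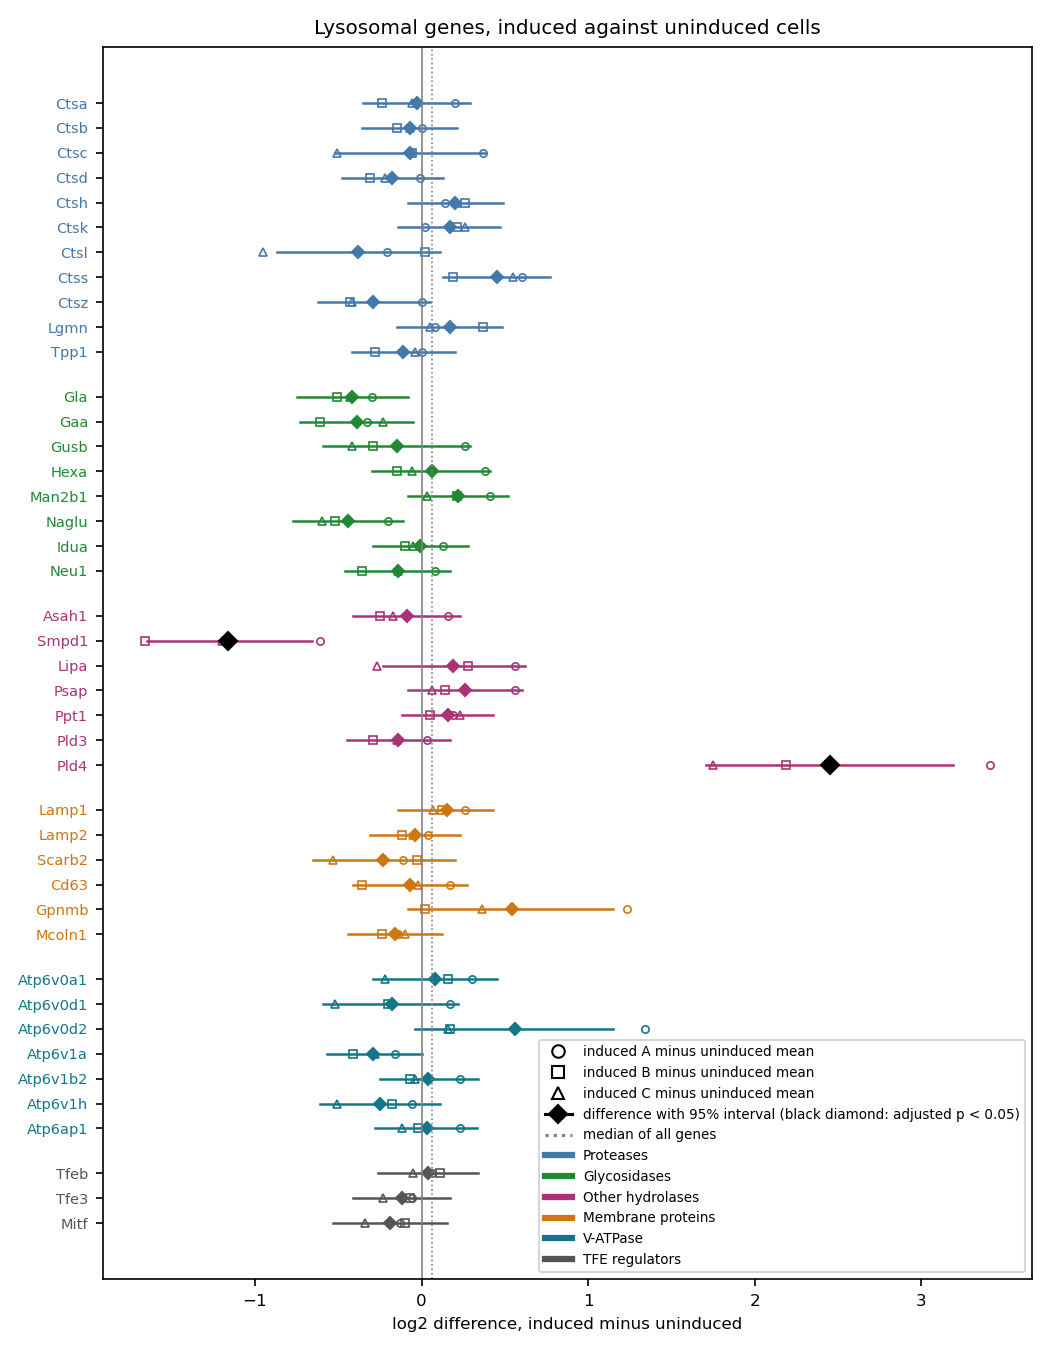
Log2 difference of each of the 42 genes, coloured by class, with open marks for induced A, B and C each minus the uninduced mean, diamonds for the difference between group means with its 95% interval, and a dotted line for the median of all genes (0.06). Pld4 at 2.45 and Smpd1 at -1.16 stand away from 0, and most other intervals cross it.

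Pld4 encodes a 5′ exonuclease that degrades single-stranded nucleic acid in the endolysosome, and lies on chromosome 12 from 112760446 to 112768986 in GRCm38.p6 (mm10). It was at 9.78, 8.57 and 8.12 in induced A, B and C, against 6.48, 6.45 and 6.21 in uninduced A, B and C. Every induced array lay above every uninduced one, and induced A was the highest. The difference was 2.45 (SE 0.33, 95% interval 1.71 to 3.19, limma adjusted p = 0.00585). All 3 uninduced values were in the range of background and all 3 induced values above it, so the rise is given as at least 2.97-fold, from the mean of that percentile on the uninduced arrays. This bound makes no allowance for the higher percentile on the induced arrays, which was 7.86 on induced C, where Pld4 was at 8.12. Under 14 other settings the difference ran from 1.97 to 2.80 and passed in each (adjusted p from 3.01e-06 to 0.0382).

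Its relative Pld3, which encodes an exonuclease of the same kind, was at 8.94, 8.62 and 8.76 in the induced samples, against 8.78, 9.04 and 8.90 in the uninduced ones. The groups overlapped, and the difference of -0.14 (95% interval -0.45 to 0.17, adjusted p = 0.478) did not pass.

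Smpd1, which splits sphingomyelin into ceramide and phosphocholine, lies on chromosome 7 from 105554360 to 105558389. It was at 9.57, 8.53 and 8.98 in induced A, B and C, against 10.30, 10.15 and 10.09 in uninduced A, B and C. The groups did not overlap, and induced A was the closest to the uninduced samples. The difference was -1.16 (SE 0.22, 95% interval -1.65 to -0.66, limma adjusted p = 0.0348), or 2.23-fold lower. This call was lost under 9 of 14 other settings, with adjusted p from 9.22e-05 to 0.15 over the 14. It ended after quantile normalization (-0.82), cyclic loess (-0.79) or median centring (-1.27), when uninduced A (-1.09), uninduced B (-1.17), uninduced C (-1.20), induced B (-0.90) or induced C (-1.13) was left out, and when both rows of the gene were averaged (-0.66). The difference was below 0 under each of the 14. The second row of Smpd1, which was dimmer, averaged 7.91 in induced and 8.07 in uninduced samples, a difference of -0.16.

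The remaining hydrolases of lipid and protein modification did not pass. Asah1, acid ceramidase, the enzyme that acts on the product of Smpd1, differed by -0.09 (95% interval -0.41 to 0.23). Lipa, which hydrolyses cholesteryl esters and triglycerides, was at 10.69, 10.41 and 9.86 in induced A, B and C, against 10.13, 10.17 and 10.09 in the uninduced samples, so that induced A and B were above and induced C below all uninduced values. Psap, the precursor of the saposins that present sphingolipids to their hydrolases, differed by 0.26 (-0.08 to 0.60) and Ppt1, which removes palmitate from proteins, by 0.16 (-0.12 to 0.43). With Pld4 and Smpd1 among them, the 7 genes had a median difference of 0.16, and 4 of the 7 were above 0.

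**Figure D2:**
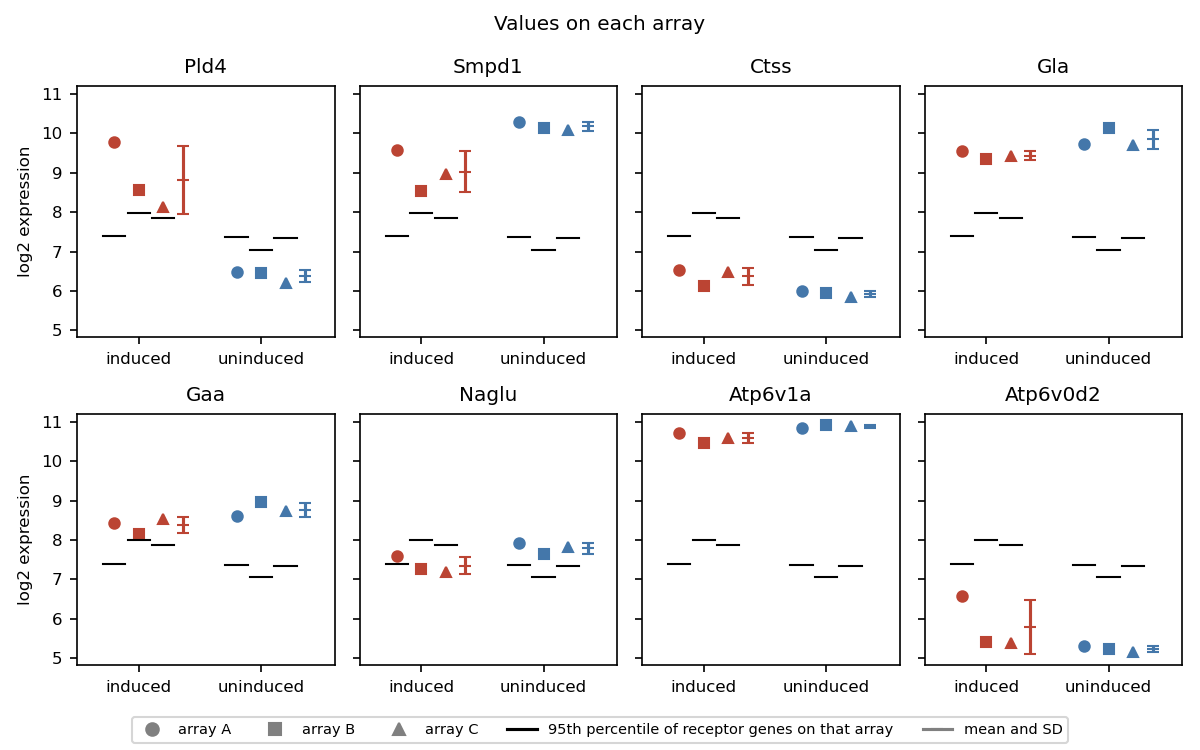
Log2 expression on each array for 8 of the 9 genes whose groups do not overlap (Ppt1 is not drawn), induced samples left and uninduced right, with mean and SD beside the points and a short black line at the 95th percentile of the receptor genes on the same array. All uninduced Pld4 values lie below that line and all induced ones above it, while Ctss and Atp6v0d2 lie below it on every array.

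The 11 proteases comprised the cysteine cathepsins, the aspartic protease Ctsd, the serine carboxypeptidase Ctsa, the asparaginyl endopeptidase Lgmn and the tripeptidyl peptidase Tpp1. None passed. Their differences ran from -0.38 for Ctsl to 0.45 for Ctss, with a median of -0.07, and 7 were below 0. Ctss, the cathepsin of invariant chain processing in antigen-presenting cells, was at 6.52, 6.12 and 6.48 in the induced samples, against 5.99, 5.95 and 5.84 in the uninduced ones. The groups did not overlap, but every value was in the range of background, and the difference of 0.45 (SE 0.14, adjusted p = 0.122) missed the threshold and was 0.24 after cyclic loess.

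Ctsl was at 10.06, 10.29 and 9.32 in induced A, B and C, against 10.22, 10.39 and 10.19 in uninduced A, B and C, so that induced C stood below the other 5 arrays. Its difference was -0.38 with all arrays and between -0.58 and -0.09 when 1 array was left out. Ctsb, a cysteine protease, and Ctsd averaged 11.40 ± 0.07 and 11.78 ± 0.15 in induced samples, against 11.48 ± 0.11 and 11.96 ± 0.12 in uninduced ones (SD, n = 3 each). Their intervals were -0.36 to 0.21 and -0.48 to 0.13. Ctsz, a carboxypeptidase, differed by -0.29 (-0.62 to 0.05). Ctsc, the dipeptidyl peptidase that activates granule serine proteases, was at 9.85, 9.41 and 8.97 in induced A, B and C, against 9.46, 9.63 and 9.34 in the uninduced samples, with induced values on both sides of the uninduced ones. Ctsa and Tpp1 differed by -0.03 and -0.11. Ctsh, Ctsk (the collagenolytic cathepsin of osteoclasts) and Lgmn did not exceed the background percentile on any array, with differences of 0.20, 0.17 and 0.17.

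None of the 8 glycosidases passed. Of the 8, 3 had induced values wholly below the uninduced ones, as did 15.4% of all genes. Naglu, which removes N-acetylglucosamine from heparan sulfate, was at 7.59, 7.27 and 7.19 in the induced samples, against 7.91, 7.63 and 7.83 in the uninduced ones. It exceeded the background percentile, which was higher on the induced arrays, on 1 induced array and on all 3 uninduced arrays. Its difference was -0.44 (SE 0.15, adjusted p = 0.127). Gla, alpha-galactosidase A, was at 9.55, 9.34 and 9.42 in induced samples, against 9.72, 10.13 and 9.71 in uninduced samples, a difference of -0.42 (SE 0.15, adjusted p = 0.137). Gaa, the acid glucosidase that degrades glycogen, was at 8.44, 8.15 and 8.54 in induced samples, against 8.61, 8.96 and 8.74 in uninduced samples, a difference of -0.39 (SE 0.15, adjusted p = 0.146).

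The highest of the uninduced values of Gla and Gaa was that of sample B. After cyclic loess the differences of Gla and Gaa were -0.05 and -0.07, and that of Naglu was -0.34. Man2b1, the lysosomal alpha-mannosidase, differed by 0.22 (-0.08 to 0.52) and Hexa, the alpha chain of beta-hexosaminidase, by 0.06. Gusb (beta-glucuronidase), Neu1 (sialidase) and Idua (alpha-L-iduronidase) differed by -0.15, -0.14 and -0.01. The median of the class was -0.15, and 6 of 8 were below 0 as deposited, against 3 of 8 after cyclic loess.

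None of the 6 membrane proteins passed. Lamp1 and Lamp2, the abundant glycoproteins of the lysosomal membrane, averaged 11.76 ± 0.10 and 10.50 ± 0.08 in induced samples and 11.61 ± 0.10 and 10.54 ± 0.01 in uninduced samples (SD, n = 3 each). Their intervals as deposited were -0.14 to 0.43 and -0.31 to 0.23. After cyclic loess the differences were 0.39 (0.17 to 0.61) for Lamp1 and 0.29 (0.02 to 0.55) for Lamp2, and neither gene passed. The tetraspanin Cd63 and the calcium channel gene Mcoln1 differed by -0.07 (-0.41 to 0.27) and -0.16 (-0.44 to 0.12). Scarb2, the receptor that carries glucocerebrosidase to the lysosome, differed by -0.23 (-0.65 to 0.20). Gpnmb, a membrane glycoprotein of macrophages, osteoclasts and pigment cells, was at 9.50, 8.30 and 8.63 in induced A, B and C, against 8.30, 7.94 and 8.59 in uninduced A, B and C. Induced A alone stood clear of the other arrays, and the difference of 0.54 had an interval of -0.08 to 1.15 (adjusted p = 0.214).

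The V-ATPase consists of a membrane sector, V0, through which protons pass, and a cytosolic sector, V1, which hydrolyses ATP. Of the 7 genes measured none passed, and the median difference was 0.03. Atp6v1a, the catalytic subunit of V1, was at 10.72, 10.47 and 10.60 in the induced samples, against 10.84, 10.91 and 10.89 in the uninduced ones. The groups did not overlap, and the difference was -0.29 (SE 0.13, adjusted p = 0.173), against 0.03 after cyclic loess. Its V1 partners Atp6v1b2 and Atp6v1h differed by 0.04 and -0.25. In V0, Atp6v0a1 differed by 0.08 and Atp6v0d1, the widely expressed d subunit, by -0.18, and the accessory gene Atp6ap1 by 0.03.

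Atp6v0d2, the d subunit of osteoclasts and macrophages, was at 6.57, 5.41 and 5.39 in induced A, B and C, against 5.31, 5.22 and 5.16 in uninduced A, B and C. Its values were within the range of background on all 6 arrays, and the difference of 0.56 (-0.04 to 1.15, adjusted p = 0.194) was 0.17 without induced A, which stood above the other 5 arrays. It was the only pump gene whose interval reached past a log2 of 1.

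Of the 3 transcription factors none passed. Tfeb lay in the range of background, at 6.52, 6.57 and 6.41 in the induced samples, against 6.43, 6.64 and 6.32 in the uninduced ones. Tfe3 averaged 8.19 ± 0.09 in induced and 8.31 ± 0.13 in uninduced samples, and Mitf averaged 8.17 ± 0.13 in induced and 8.36 ± 0.25 in uninduced samples (SD, n = 3 each). The 3 intervals ran from -0.53 at the lowest to 0.34 at the highest. These are transcript levels, whereas the TFE factors are also held in the cytoplasm by phosphorylation, which arrays do not measure. The 11 measured genes with CACGTG in a promoter window differed by -0.44 to 0.17 with a median of -0.18, and the 25 measured genes that had a window without these letters had a median of -0.01 and spanned -1.16 to 2.45. After cyclic loess the medians of these 11 and 25 genes were 0.03 and 0.24. The difference between them was not tested. The 5 genes with GAGGAAGT were Pld4, Ctss, Ctsc, Gusb and Gla, of which Pld4 rose and the others did not pass.

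The direction of the class medians followed the scaling. As deposited, the arrays differed in interquartile range, the width of the middle part of their values over all rows. It was 2.37, 2.17 and 2.21 on induced A, B and C, against 2.40, 2.62 and 2.44 on uninduced A, B and C. The part of this in the differences of bright genes was not tested. As deposited, the 42 genes had a median difference of -0.07 with 25 below 0, while all genes had a median of 0.06. After cyclic loess, which aligns the arrays along the range of brightness, the median of the 42 was 0.21 with 10 below 0, and after quantile normalization 0.17 with 9 below 0. After median centring it was -0.18 with 30 below 0, and the median of all genes moved to -0.06. The medians of the proteases, glycosidases, membrane proteins and TFE factors were below 0 as deposited and after median centring, and above 0 after both other scalings. The proton pump median was below 0 only after median centring, and that of the other hydrolases was above 0 under all 4. Over all genes the calls higher in induced cells numbered 83 as deposited, 78 after quantile normalization, 83 after cyclic loess and 51 after median centring, and the lower ones 232, 108, 118 and 160 in the same order. Higher calls were thus 26.3%, 41.9%, 41.3% and 24.2% of all calls. Lower calls outnumbered higher ones under all 4, and after each of the 3 rescalings they were fewer than as deposited. Pld4 was the only one of the 42 genes to pass after each of the 3 rescalings.

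**Figure D3:**
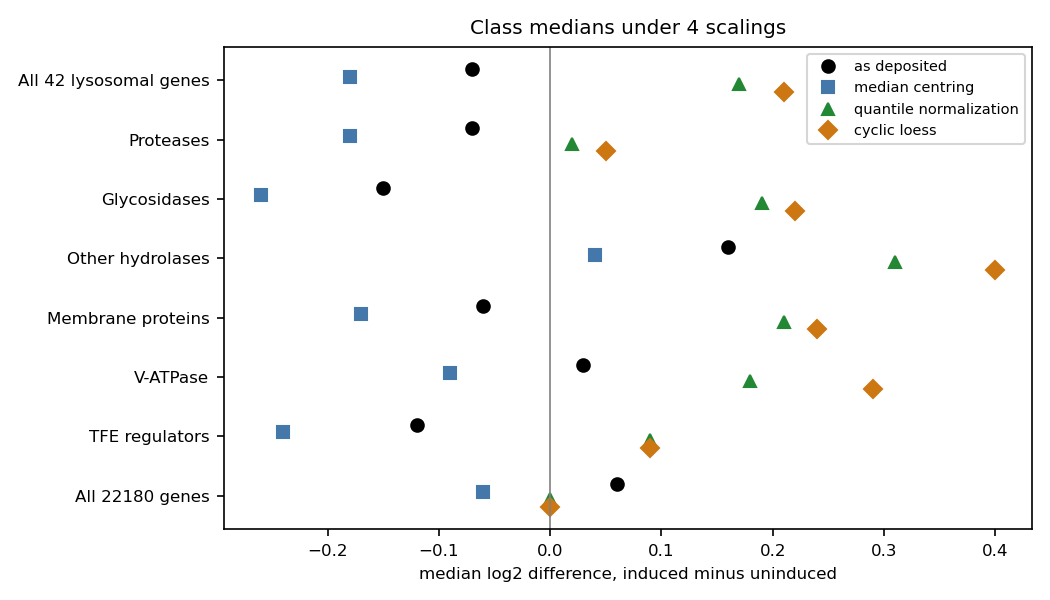
Median log2 difference, induced minus uninduced, of each class, of all 42 genes and of all 22180 genes, as deposited and under 3 rescalings. The medians of the 42 genes lie at -0.18 and -0.07 for median centring and as deposited, and at 0.17 and 0.21 for quantile normalization and cyclic loess.

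The induced arrays did not behave alike. Relative to the uninduced mean, the 42 genes had medians of 0.11, -0.10 and -0.11 in induced samples A, B and C. Among all genes the corresponding medians were 0.00, 0.07 and 0.06. Induced A held the highest of the 3 induced values for 32 of the 42 genes (76.2%), against 36.8% of all genes, and for all 7 pump genes. The share was 80.5% among the 113 other genes of the lysosome and of autophagy described below, so this was not particular to the 42. Without induced A, Ctsz (-0.43) and Naglu (-0.56) passed along with Smpd1 among the lower genes, but 24.9% of all genes were called in that setting, against 1.42% with all arrays. Induced A was also the array with the highest values of Pld4, Gpnmb and Atp6v0d2.

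Other genes of the lysosome and of autophagy, taken as 6 lists, gave 2 further calls among 113 measured genes. Both rose. Of all genes 0.374% were called higher and 1.42% in either direction, and a count of 2 is too small to be set against those shares. Gm2a, the activator protein that lets beta-hexosaminidase reach its ganglioside, was at 10.33, 10.00 and 9.72 in the induced samples, against 8.92, 8.73 and 9.10 in the uninduced ones. It rose 2.14-fold (log2 difference 1.10, SE 0.17, limma adjusted p = 0.0127) and passed under 11 of 14 other settings (adjusted p from 7.58e-04 to 0.0651). It was lost after median centring (0.99) and without uninduced A (1.10) or uninduced B (1.01). Cd68, the macrophage member of the Lamp family, was at 10.08, 9.90 and 9.44 in the induced samples, against 8.38, 8.27 and 8.69 in the uninduced ones. It rose 2.57-fold (1.36, SE 0.18, adjusted p = 0.00563) and passed under all 14 other settings, with adjusted p up to 0.0403.

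In the list of 24 other hydrolases Gm2a was the only gene called and the median was -0.27. In that of 22 other membrane proteins Cd68 was the only gene called and the median was -0.18. None of 14 other V-ATPase genes (median -0.12), 10 genes of mannose 6-phosphate sorting (-0.20), 19 genes of mTORC1 control at the lysosome (-0.27) or 24 autophagy genes (-0.37) passed. After cyclic loess these 6 medians were 0.00, 0.15, 0.05, -0.01, 0.05 and -0.07, and 1 gene of the mTORC1 list passed. Of the 24 autophagy genes 22 were below 0 as deposited, where 9768 of 22180 genes in all were. After cyclic loess 15 of the 24 were, and 10989 of all genes. As deposited 13 of the 24 had an unadjusted p under 0.05 in the lower direction, against 16.9% of all genes. After cyclic loess 6 of the 24 had, against 1920 of the 22180 genes. The 2 brightest of that list, Gabarap and Rab7, differed by 0.05 and 0.04. M6pr and Sort1, both sorting receptors that deliver hydrolases, differed by -0.28 and -0.04, the V-ATPase genes Atp6v0e and Atp6ap2 by -0.18 and 0.08, and Tfec, the fourth TFE family gene, and Lamtor4, of the Ragulator complex, by 0.00 and -0.27.

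**Figure D4:**
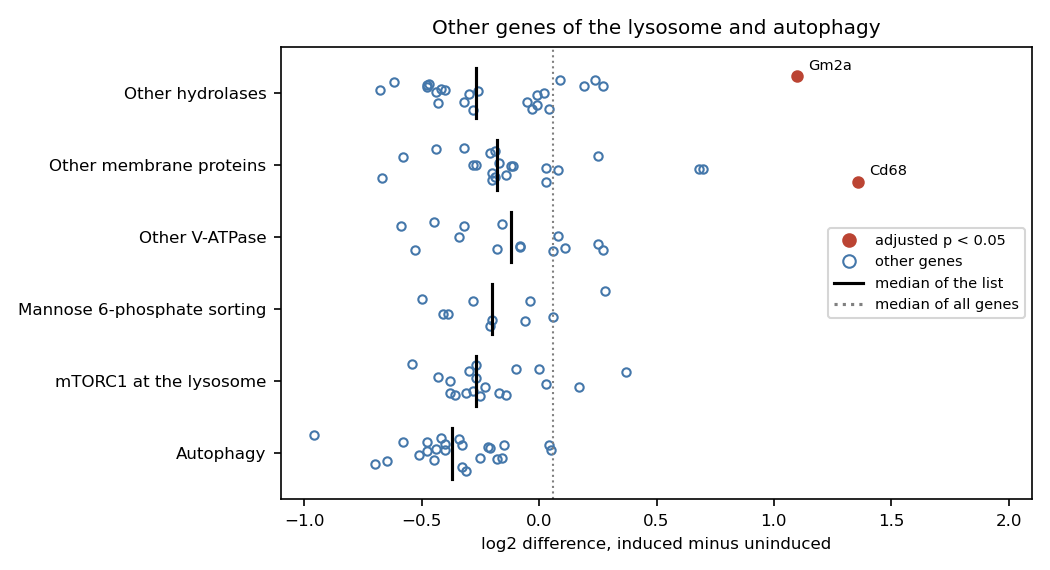
Log2 difference of each gene in 6 further lists, with the median of each list as a black bar and the median of all genes (0.06) as a dotted line. Gm2a at 1.10 and Cd68 at 1.36 are the filled points, which passed the test.

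Some markers of macrophages and granulocytes also rose, and most of those listed did not pass. Of 10 macrophage markers 4 rose, against 0.374% of all genes, and 1 of the 4 was Cd68, already counted above. The others were Adgre1 (at least 3.01-fold), Mrc1 (at least 2.21-fold) and Mpeg1, which was above the background percentile on 2 of the 3 induced arrays. Mpeg1 was at 7.55, 7.67 and 7.88 in induced A, B and C, where that percentile was 7.39, 7.99 and 7.86, so no minimum fold is given for it. As for Pld4, the bounds are set against the uninduced percentile and make no allowance for the higher induced one. The remaining 6 did not pass, with differences from -0.78 for Cd14 (95% interval -1.47 to -0.08, adjusted p = 0.153), singled out after its value was seen, to 0.61, and 4 markers of the list were in the range of background on all 6 arrays. The mean log2 level over the list was 7.74 to 8.02 on the induced arrays, against 6.99 to 7.13 on the uninduced ones. Of 10 granulocyte markers 4 rose, namely S100a9 (2.90-fold), Ltf, Mmp8 (at least 2.90-fold) and Mpo (at least 1.71-fold). Ltf was at 7.35, 8.97 and 8.29 in induced A, B and C. Like Mpeg1 it exceeded the background percentile on 2 of the 3 induced arrays, so no minimum fold is given for it. The remaining 6 did not pass, with differences from -0.02 to 0.45, and the mean level of the list was 10.28 to 10.61 on the induced arrays, against 9.63 to 9.73 on the uninduced ones. The part of such cells in the rise of Pld4, Gm2a and Cd68 was not tested, and in whole cultures more cells of a type cannot be told apart from more RNA per cell. Of the measured markers of osteoclasts (8), mast cells (8), erythroid cells (3), hepatocytes (7), T cells (6), B cells (7) and stroma (8) none passed. In that order, 6, 7, 3, 6, 5, 6 and 8 of them did not exceed the background percentile on any array. Kit, on the mast cell list, was above that range on all 6 arrays and differed by 0.00. The osteoclast-list genes Nfatc1 and Itgb3 were above it on 1 and 0 induced arrays and on 3 uninduced arrays each, and Atp6v0d2 and Ctsk, both used by osteoclasts, were in it on all 6. The percentile was higher on the induced arrays, and the differences of Nfatc1 and Itgb3, -0.22 and -0.31, did not pass.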

How the data were processed

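RNA from 6 samples, 3 induced and 3 uninduced, was hybridised to 1 array each. The authors deposited 1 table of log2 expression values per transcript cluster. That they are log2 was judged by their range, 2.86 to 14.03, and by the medians of the arrays, 6.53 to 6.78. Partek and mm10 are named per the submitters' processing notes. How background was corrected, arrays normalized and probes summarised is not given in the sources used here. The number of arrays limits the precision.

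Of 41345 transcript clusters, 23521 had 1 gene symbol in the platform annotation, which can be old, 1814 had several and 16010 were not listed. Each gene was represented by the cluster with the highest mean over the 6 arrays. Groups came from the sample titles. The test was limma 3.58.1 (lmFit and eBayes) in R 4.3.3, two-sided, without covariates, with Benjamini-Hochberg adjustment over 22180 genes and a threshold of 0.05. The code was checked on simulated data. Gene positions and promoter windows came from RefSeq tables.

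The members and gene lists were chosen with earlier results of these data known. All members could be named; of every other list, up to 4 genes past the threshold with the largest change were named, or up to 2 with the highest mean where none passed, and Spi1. Alternatives were a replicate block, 3 rescalings, a filter on dim genes, a variance trend with robust moderation, array weights, the mean of a gene's clusters and leaving out each array. A planned comparison of protein sequences was not made.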

Additional observations from a re-analysis of the deposited data

How the results depend on the processing

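Pld4 passed under all 14 alternatives and Smpd1 under 5. The other 40 genes did not pass in 548 of 559 combinations of gene and alternative. The correlations of deviations from the group means were -0.31, -0.28 and 0.42 for same-lettered arrays A, B and C, and -0.42 to 0.52 for arrays of different letters. With so few arrays they cannot settle whether the letters pair the samples. With the letter as a replicate block 174 of all genes were higher and 425 lower, with Pld4 and Smpd1 still the calls among the 42. Over all genes median centring gave 51 higher, quantile normalization 108 lower and cyclic loess 118 lower. Array weights gave 5825 higher and 5681 lower, with 2 and 9 of the 42 genes; the weights ran from 0.309 for induced A to 4.6 for uninduced C. No gene of the 42 was lower after the 3 rescalings or with the mean of clusters (0 in each). Leaving out 1 array gave 45 to 1998 higher and 47 to 3535 lower over all genes, the highest counts without induced A, and 0 to 3 lower among the 42. The median of the 42 was 0.17 after quantile normalization and 0.21 after cyclic loess. After quantile normalization, median centring and cyclic loess the medians were 0.02, -0.18 and 0.05 for proteases, 0.21, -0.17 and 0.24 for membrane proteins, and 0.09, -0.24 and 0.09 for TFE factors. Glycosidases had 0.19 after quantile normalization and 0.22 after cyclic loess. After cyclic loess the other hydrolases had 0.40 and the proton pump 0.29, and with array weights the other hydrolases had -0.11. Leaving out 1 array moved the protease median between -0.15 and -0.01. The cause of these shifts was not tested. For the 6 genes in the range of background on all arrays, signal limits what can be read from a difference.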
